A study of Mus musculus with 6 samples.

Results

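Follicular helper T cells are the CD4 T cells that enter B cell follicles and help germinal center B cells to divide, mutate their antibody genes and survive. Their program runs from the co-receptor CD4 and the costimulatory receptors CD28 and ICOS, through the adaptor SAP (gene Sh2d1a) and the transcription factors BCL6, TCF1 (Tcf7) and LEF1, to the cytokine IL-21, with CTLA4 and PD-1 (Pdcd1) as inhibitory receptors. In germinal centers these cells lie beside the macrophages that clear apoptotic B cells. A list of 10 genes was followed (Cd4, Icos, Pdcd1, Il21, Sh2d1a, Bcl6, Tcf7, Lef1, Cd28 and Ctla4), through array probe sets whose annotation names a single gene. The list was chosen by gene function, with earlier results of these data known. Of the 10, 9 genes had such a probe set, 1 each, among 19938 genes of the arrays, and Tcf7 was not analysed here.

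Starry-sky tumor-associated macrophages (SS-TAMs) were cut by laser, 1000 cells per tissue, from subcutaneous tumors of the human Burkitt's lymphoma line BL2 in female BALB/c SCID mice aged 6 to 12 weeks, once tumors measured 1.44 cm2, and the cells were picked by CD68 staining (3 samples). Germinal center macrophages (GCMs) were cut in the same number from female CSF1R EGFP transgenic BALB/c mice of that age, in which Csf1r control elements drive a green reporter in the macrophage lineage, immunized with sheep erythrocytes in 2 doses (3 samples). For the GCM animals 1 label gives spleen as the tissue, although another names lymph nodes. SCID mice lack mature T and B cells but keep myeloid and natural killer cells, so the SS-TAM arrays come from hosts without a normal T cell compartment. Host genotype (SCID or reporter transgene), tissue, tumor and immunization differ between the groups together and cannot be told apart. Only the GCM animals carried the reporter, so the way cells were picked may differ with the group as well.

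Each sample gave 1 array, with probe set intensities deposited in linear units and rounded to 1 decimal. The samples of a group are labelled as biological replicates without naming animals, so p-values measure the spread between these samples. The median intensity of all probe sets was 6.3, 6.4 and 6.5 on the SS-TAM arrays and 6.1, 6.1 and 6.2 on the GCM arrays. The bright end differed: the 99th percentile was 243.9, 241.5 and 283.7 on the SS-TAM arrays, against 613.8, 663.8 and 655 on the GCM arrays. The part of this difference in the fold changes below was not tested, and Cd28 and Icos were the members called lower after quantile normalization too. No detection calls were used, so a value near those medians is a level and not proof of a transcript, and intensities of different probe sets are not compared with each other. In such captured spots, fewer cells of a type and less RNA per cell cannot be told apart.

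Of the 9 genes measured, Cd28 and Icos were lower in SS-TAMs and none was higher by limma (adjusted p under 0.05 over 19938 genes), nor was any higher at an unadjusted p under 0.05. Among all genes tested, 4.74% were called lower and 5.16% higher (946 and 1028 genes, against 1195 and 722 after median centring). For Cd28, Icos and Sh2d1a all 3 SS-TAM arrays lay below all 3 GCM arrays, a pattern shown by 11.5% of all genes, and no member had all SS-TAM arrays above, against 18.5% of all genes. The other 6 genes overlapped between the groups. The median log2 fold change (SS-TAM over GCM) was -0.25 over the 9 genes and 0.04 over all genes.

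**Figure D1:**
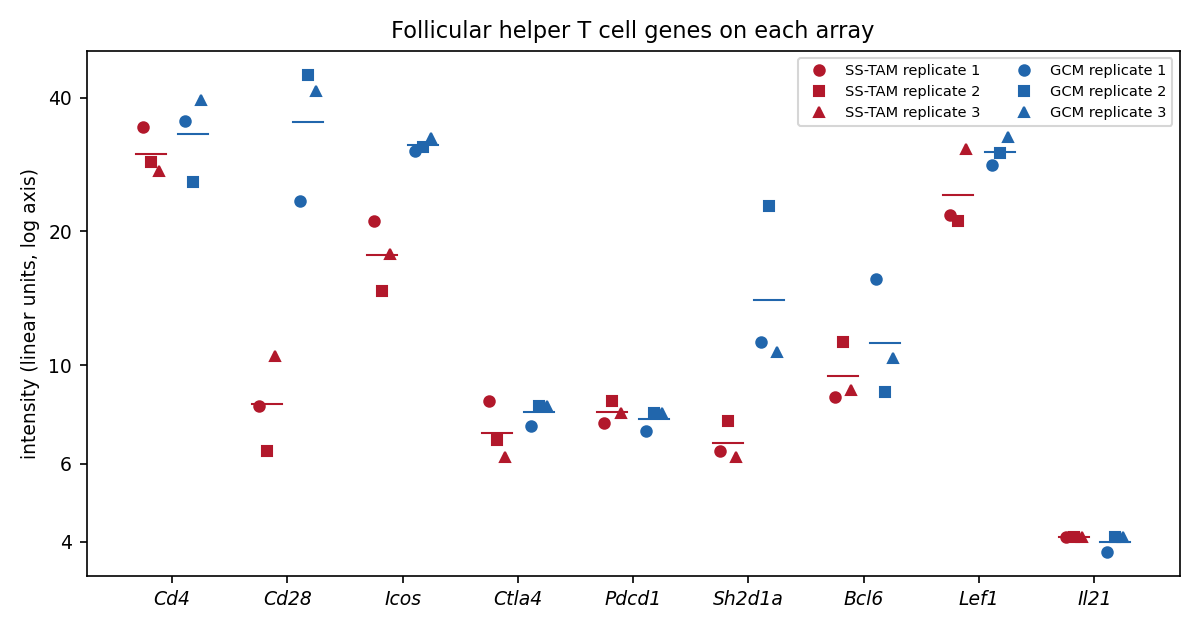
Linear intensity, on a log axis, of each of the 9 genes by array, with 3 SS-TAM arrays (red, left) and 3 GCM arrays (blue, right) per gene; marker shapes are replicates and bars are geometric means of the groups. Cd28 spans 6.4 to 10.5 in SS-TAMs and 23.4 to 45.1 in GCMs, whereas the Cd4 and Lef1 arrays of the groups overlap.

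Cd28 encodes the main costimulatory receptor of T cells, which binds CD80 and CD86. Its intensity was 8.1, 6.4 and 10.5 in SS-TAMs, against 23.4, 45.1 and 41.5 in GCMs. The groups did not overlap, and the SS-TAM values reached down to the array median. The difference was -2.11 on the log2 scale (standard error 0.30, 95% interval -2.85 to -1.37), a 4.32-fold lower level in SS-TAMs (adjusted p = 0.013 from limma). The SS-TAM level lies near the array median and no detection call was used, so the size of this fold is uncertain. The call was lost without GCM replicate 2 (log2 -1.93, adjusted p = 0.060 from limma) and without GCM replicate 3 (log2 -1.99, adjusted p = 0.061 from limma).

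Icos encodes the inducible costimulator, a relative of CD28 that binds ICOS ligand on B cells and is needed to form and keep follicular helper T cells. It was at 21.1, 14.7 and 17.8 in SS-TAMs, against 30.4, 31.0 and 32.4 in GCMs. The GCM arrays were close together and the SS-TAM arrays spread more widely below them. The difference on the log2 scale was -0.82 (standard error 0.13, 95% interval -1.15 to -0.49), or 1.77-fold lower in SS-TAMs (adjusted p = 0.019 from limma). The call was lost without SS-TAM replicate 3 and without each GCM array in turn (adjusted p = 0.064 to 0.085 from limma), while the log2 value stayed between -0.95 and -0.69. The decrease was below 2-fold.

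Ctla4 encodes the inhibitory receptor that competes with CD28 for CD80 and CD86. It was at 8.3, 6.8 and 6.2 in SS-TAMs, against 7.3, 8.1 and 8.1 in GCMs. SS-TAM replicate 1 was the highest of all 6 arrays, so the groups overlapped. On the log2 scale the difference was -0.15 (95% interval -0.44 to 0.14, adjusted p = 0.46 from limma). In the mouse reference assembly Cd28, Ctla4 and Icos are consecutive protein-coding genes, with 0 others between them, and Ctla4 alone of these neighbors was not called. Whether its difference was smaller than theirs was not tested.

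Pdcd1 encodes PD-1, the inhibitory receptor carried at a high level by follicular helper T cells. Its values were 7.4, 8.3 and 7.8 in SS-TAMs, against 7.1, 7.8 and 7.8 in GCMs. They overlapped, slightly above the array medians. On the log2 scale this was a difference of 0.05 (95% interval -0.13 to 0.22, adjusted p = 0.68 from limma).

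Cd4 encodes the co-receptor for MHC class II, which in mice is also carried by some dendritic cells. It was at 34.3, 28.6 and 27.3 in SS-TAMs, against 35.5, 25.8 and 39.6 in GCMs. The lowest array of all 6 was a GCM array, and the groups overlapped over most of their range. The fitted difference was -0.15 on the log2 scale (95% interval -0.59 to 0.30, adjusted p = 0.63 from limma). In the SCID xenografts Cd4 thus stood above the array median, at a mean of 30.1 ± 3.72 against 33.6 ± 7.09 in GCMs (SD, n = 3).

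Sh2d1a encodes SAP, the adaptor that links receptors of the SLAM family to the kinase FYN and that T cells need for lasting contact with germinal center B cells. It was at 6.4, 7.5 and 6.2 in SS-TAMs, against 11.3, 22.8 and 10.7 in GCMs. The SS-TAM values sat around the array median, all GCM values lay above them, and GCM replicate 2 stood well above the other GCM arrays. The log2 fold change was -1.07 (standard error 0.30, 95% interval -1.81 to -0.33), and it was not called (adjusted p = 0.086 from limma). Without GCM replicate 2 the log2 value was -0.72 and the gene was called (adjusted p = 0.046 from limma). It was also called with only genes of a mean intensity of at least 10 tested (adjusted p = 0.031 from limma). Sh2d1a met that limit through its GCM mean of 14.9, with an SS-TAM mean of 6.7. That fit called 947 of 5366 genes lower, so this call adds no support.

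**Figure D2:**
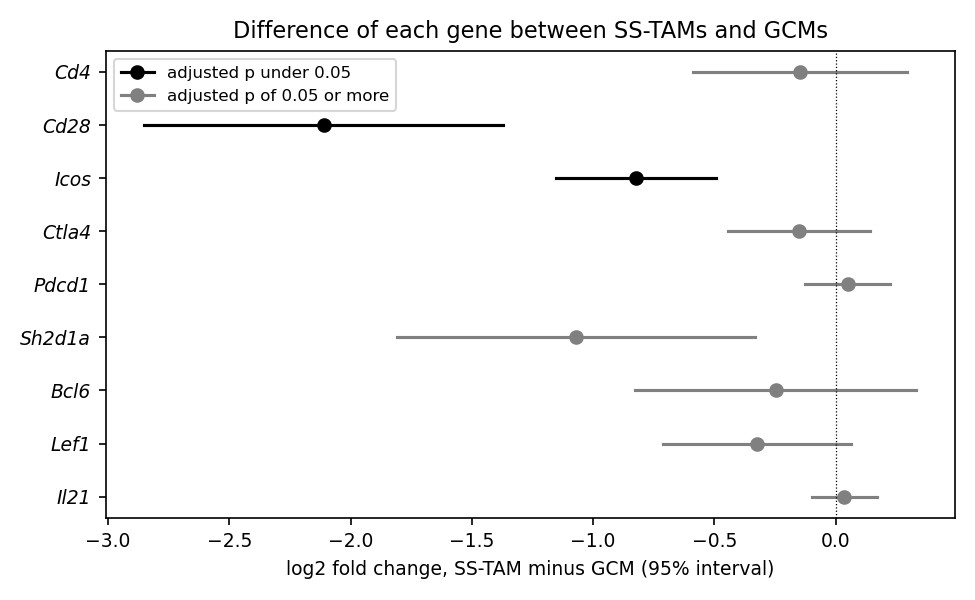
Log2 fold changes (SS-TAM over GCM) for the 9 genes; points are limma estimates from 3 SS-TAM and 3 GCM arrays, lines are 95% intervals, and black marks an adjusted p under 0.05. Cd28 at -2.11 and Icos at -0.82 are called, and the interval of Sh2d1a (-1.81 to -0.33) lies below 0 although its adjusted p is 0.086.

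Bcl6 encodes the repressor that defines both follicular helper T cells and germinal center B cells. It was at 8.5, 11.3 and 8.8 in SS-TAMs, against 15.6, 8.7 and 10.4 in GCMs. The groups overlapped, and GCM replicate 1 was highest. The fitted log2 difference was -0.25 (95% interval -0.83 to 0.33, adjusted p = 0.54 from limma), and it was -0.01 without GCM replicate 1. The 8 germinal center B cell markers measured had a summed intensity between 67.3 and 73.4 in SS-TAMs, against 270, 121 and 120 in GCM replicates 1, 2 and 3, so Bcl6 was highest on the array where these markers were highest. Neither their part in the Bcl6 values nor that of transcripts from the human tumor cells was tested.

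Lef1 encodes a TCF-family transcription factor that acts with TCF1 ahead of BCL6. It was at 21.8, 21.1 and 30.7 in SS-TAMs, against 28.2, 30.0 and 32.7 in GCMs. Only SS-TAM replicate 3 reached into the GCM range. The log2 fold change was -0.32 (95% interval -0.71 to 0.07, adjusted p = 0.26 from limma), and without SS-TAM replicate 3 it was -0.50 with the gene called (adjusted p = 0.040 from limma). The 9 genes listed as TCF/LEF relatives, cofactors and targets had 0 calls in either direction and a median log2 fold change of 0.06 (-0.0077 after median centring and -0.0041 after quantile normalization). Without SS-TAM replicate 2 there was 1 lower gene, Tle4. Another gene, Tcf7l1, was called lower under median centring, quantile normalization and log2 of intensity plus 10 (adjusted p = 0.030, 0.030 and 0.036 from limma). Ctnnb1, the gene of beta-catenin, had 0.42 (adjusted p = 0.27 from limma) and Tle3, a Groucho co-repressor gene, 0.06 (adjusted p = 0.59 from limma).

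Il21 encodes the cytokine by which follicular helper T cells drive germinal center B cells and plasma cells. It was at 4.1 on every SS-TAM array, and at 3.8, 4.1 and 4.1 on the GCM arrays. All 6 values were below the array medians, and the deposited value was the same on 5 arrays. The log2 fold change was 0.04 (95% interval -0.10 to 0.17, adjusted p = 0.70 from limma). Pdcd1 and Ctla4 also had the same value on 3 and 2 arrays, so 3 of the 9 genes shared values between arrays.

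Among 26 other surface receptors, cytokines and cytokine receptors that mark, promote or oppose the helper program, 9 were lower and 2 higher, with a median log2 fold change of -0.43. The list mixes these roles, so its count of lower genes is not a measure of that program. The largest changes were in S1pr1, a receptor that guides lymphocytes out of tissue, which averaged 23.9 ± 8.60 in SS-TAMs, against 137 ± 26.4 in GCMs (SD over 3 arrays each), in the chemokine receptor gene Ccr7 (-1.70 on the log2 scale), in Ly9 and in Cd200 (-1.13), the gene of a ligand for a myeloid inhibitory receptor. Cd40lg, the gene of the CD40 ligand that licenses B cells, fell by 0.40 and the inhibitory receptor gene Btla by 0.38 on the log2 scale (adjusted p = 0.045 and 0.036 from limma). Cxcr5, the follicle-homing receptor gene, had -0.63 and was not called (adjusted p = 0.14 from limma). With each array left out in turn, 3 to 8 genes of this list were lower and 1 to 2 higher: 4 were lower without SS-TAM replicate 3, GCM replicate 1 or GCM replicate 2, and 3 without GCM replicate 3. S1pr1, Ly9 and Cd200 were called in each such fit, Cd40lg in none, Ccr7 only with GCM replicate 1 left out, and Btla only with SS-TAM replicate 1 or 2 left out.

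Both genes of the list that were higher, Ly9 and Cd84, encode SLAM family receptors, the partners of SAP. Ly9 was at 105.8, 91.8 and 100.6 in SS-TAMs, against 38.2, 33.3 and 38.8 in GCMs (log2 1.44, adjusted p = 0.0012 from limma). Cd84 was at 26.5, 18.4 and 25.4 in SS-TAMs, against 12.5, 12.0 and 12.9 in GCMs (log2 0.89, adjusted p = 0.019 from limma). Both rose without overlap between the groups. Scaling to core macrophage markers gave -0.30 and -0.84, both above the all-gene median of -1.70 under that scaling. Macrophages are known to carry both receptors as well, and their part in these values was not tested. Slamf1 and Slamf6, which were not called, had log2 values of -0.81 and -0.53 (adjusted p = 0.053 and 0.19 from limma), and Slamf1 was called lower after median centring and quantile normalization (adjusted p = 0.034 and 0.029 from limma). The Cd84 call held only when SS-TAM replicate 2 was the array left out.

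Of 30 transcription and post-transcriptional regulators that promote or oppose the helper program, Satb1, Tox and Runx3 were lower and none was higher, with a median log2 fold change of -0.04. Satb1, a chromatin organizer of T cells, was at 7.4, 6.8 and 4.6 in SS-TAMs, against 51.4, 64.4 and 81.7 in GCMs. Its SS-TAM values lay around the array median and its log2 difference of -3.40 (adjusted p = 0.0015 from limma) is therefore uncertain in size. Tox, which follicular helper T cells express, fell by 0.98 (adjusted p = 0.014 from limma), and Runx3, known from CD8 T cells, by 0.70 on the log2 scale (adjusted p = 0.038 from limma). Ascl2, Batf and Maf, which favor the follicular fate, had log2 values of 0.17, 0.17 and 0.67 and were not called (adjusted p = 0.41, 0.54 and 0.19 from limma), nor was Prdm1, the antagonist of Bcl6 (0.22, adjusted p = 0.39 from limma). With each array left out in turn, leaving out SS-TAM replicate 2 gave 3 lower genes, leaving out GCM replicate 3 gave 1, and each other fit gave 2, with Satb1 in every fit. Tox was not called once SS-TAM replicate 3 or GCM replicate 3 was left out, and Runx3 was called only with SS-TAM replicate 3 left out.

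Of 13 signalling partners of the receptors, 4 were lower and 0 higher, with a median log2 fold change of -0.16. Lat, the adaptor downstream of the T cell receptor, averaged 11.7 ± 0.93 in SS-TAMs, against 98.4 ± 18.2 in GCMs (SD over 3 arrays each), and Prkcq, the kinase gene of the CD28 pathway, fell by 1.69 on the log2 scale (adjusted p = 0.0085 from limma). Pik3r1, a regulatory subunit of the kinase recruited by CD28 and ICOS, fell by 1.06, and the adaptor gene Grap2 by 0.71 (adjusted p = 0.016 and 0.048 from limma). Fyn, the kinase that SAP recruits, had a log2 value of -0.15 (adjusted p = 0.32 from limma). With each array left out in turn, leaving out SS-TAM replicate 3 gave 2 lower genes, leaving out GCM replicate 2 gave 1, and each other fit gave 3. Lat was called in each fit and Grap2 in none, Prkcq was not called once GCM replicate 2 was left out (adjusted p = 0.051 from limma), and Pik3r1 was not called once SS-TAM replicate 3 or GCM replicate 2 was left out.

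On the side of the cells that T cells help or are primed by, 2 of 16 ligands and counter-receptors were lower and 1 higher, with a median of -0.06. The counts were 4 and 0 after median centring, and 2 and 0 after quantile normalization. H2-Aa, an MHC class II chain gene and thus a ligand of CD4, was at 53.9, 28.4 and 55.9 in SS-TAMs, against 189.3, 133.5 and 158.2 in GCMs (adjusted p = 0.017 from limma). Il21r, the receptor gene of IL-21, was at 13.7, 11.3 and 14.3 in SS-TAMs, against 22.3, 20.7 and 23.7 in GCMs (adjusted p = 0.012 from limma). It is also counted among the lower surface and cytokine receptor genes above. Neither H2-Aa nor Il21r overlapped between the groups. Other class II chain genes, H2-Ab1 and H2-Eb1, had log2 values of -1.02 and -0.43 and were not called (adjusted p = 0.063 and 0.20 from limma). After median centring H2-Ab1 was called lower (adjusted p = 0.046 from limma) and H2-Eb1 was not. Il27, a subunit gene of a cytokine that acts on T cells, rose by 0.28 on the log2 scale (adjusted p = 0.034 from limma). Its call was lost after median centring and quantile normalization (adjusted p = 0.087 for both from limma). Scaled to core macrophage markers it had -1.46, above the all-gene median of -1.70 under that scaling. The direct partners of the costimulatory receptors were not called: Icosl had a log2 value of -0.12, Cd80 of -0.16 and Cd86 of -0.43 (adjusted p = 0.27, 0.27 and 0.065 from limma), and the PD-1 ligand genes Cd274 and Pdcd1lg2 had 0.57 and 0.05 (adjusted p = 0.25 and 0.73 from limma). After median centring Cd86 was called lower (-0.50, adjusted p = 0.035 from limma), but not after quantile normalization (-0.26, adjusted p = 0.33 from limma). H2-Aa and Il27 were not called once any GCM array was left out, nor Il21r once GCM replicate 1 or 3 was left out, so that 0 genes of this list were lower without GCM replicate 1 or 3.

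**Figure D3:**
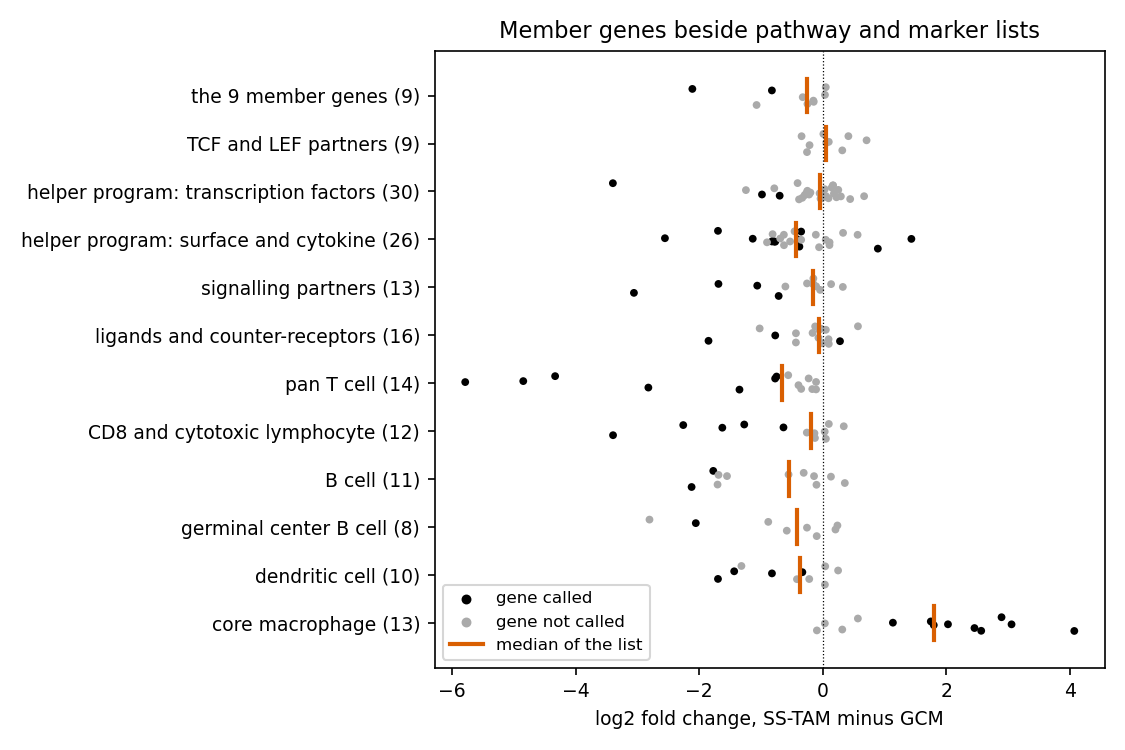
Log2 fold changes (SS-TAM over GCM) for the 9 genes and for the measured genes of 11 pathway and marker lists (list size in brackets); black points passed an adjusted p under 0.05, grey points did not, and the orange tick is the median of a list. The pan T cell gene Cd3g is at -5.79 and Cd28 at -2.11, both of uncertain size because their SS-TAM levels lie near the array median, and core macrophage genes have a median of 1.80.

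Some markers of the other cells that a captured spot can hold were lower in SS-TAMs. Of 14 pan T cell markers, 7 were lower, none was higher and the other 7 were not called (5 to 7 lower with each array left out in turn), with a median of -0.65. Cd3g, Cd2, Cd3d and Cd3e, of which the Cd3 genes encode parts of the T cell receptor complex, were among those lower. Cd3g averaged 6.33 ± 0.15 in SS-TAMs, at the array median, and 355 ± 70.1 in GCMs (SD, n = 3 arrays each; log2 -5.79, adjusted p = 0.00019 from limma), so the size of its fold is uncertain as well. Summed over the 14 markers, intensity ranged between 221 and 332 in SS-TAMs, against 1153 to 1530 in GCMs. Cd3e was not called once any GCM array was left out, and Thy1, which stromal cells also carry, overlapped between the groups (log2 -0.23, adjusted p = 0.67 from limma). Thy1 alone held 190.8, 93.3 and 122.3 of the SS-TAM sums, and 144.2, 119.4 and 202.9 of the GCM sums. Cd5, Cd6, Ubash3a and Trat1 overlapped as well, with log2 values of -0.17, -0.11, -0.11 and -0.56, and were not called.

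Of 12 CD8 and cytotoxic lymphocyte markers, 5 were lower, 0 higher and 7 not called. Cd8b1 and Cd8a, the chains of the CD8 co-receptor, averaged 10.8 ± 1.96 and 10.1 ± 0.61 in SS-TAMs, against 51.4 ± 8.78 and 32.9 ± 13.7 in GCMs (SD over 3 arrays each; log2 -2.26 and -1.63, adjusted p = 0.0021 and 0.024 from limma). Cd4 had -0.15 and was not called. Whether Cd4 differed from the CD8 chain genes in its change was not tested. The lower count was 5 with all arrays (2 without GCM replicate 1, 3 without GCM replicate 2, GCM replicate 3 or SS-TAM replicate 3, and 4 in the other fits), with the chemokine gene Ccl5 at -3.39 and the cytotoxic granule gene Nkg7 at -1.27. Gzmb and Prf1, genes of cytotoxic granule proteins, had 0.34 and 0.05 and were not called (adjusted p = 0.29 and 0.86 from limma). Cd8a was called only with GCM replicate 2 or 3 left out.

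B cell, germinal center B cell and dendritic cell markers were also lower where they were called, in 2 of 11, 1 of 8 and 4 of 10 cases, and none was higher. The lymphoma cells around SS-TAMs were human and the arrays carry mouse probes. Low mouse B cell signal therefore does not show that SS-TAM spots held few B lineage cells, and binding of human transcripts to these probes was not tested. The genes called lower were the B cell genes Cd79a and Ms4a1 (-2.12 and -1.77 on the log2 scale), Klhl6 (-2.05), and Ccr7, Dpp4, Flt3 and Clec9a (-1.70 to -0.33). Cd79a in SS-TAMs and Clec9a in both groups lay below the array medians, so the size of these differences is uncertain. Ccr7, also counted among the surface receptor genes above, was not called after quantile normalization (-1.40, adjusted p = 0.079 from limma). Without GCM replicate 1 the lower counts were 4, 2 and 3, while without SS-TAM replicate 2 no B cell marker was called and without GCM replicate 2, GCM replicate 3 or SS-TAM replicate 3 no dendritic cell marker was. Without any other single array 1 B cell marker was called. Summed B cell marker intensity lay between 98.5 and 111 in SS-TAMs, against 404, 163 and 163 in GCM replicates 1, 2 and 3. Summed dendritic cell marker intensity lay between 96.5 and 128 in SS-TAMs, against 170 to 279 in GCMs. Of 13 core macrophage markers, 9 were higher and 0 lower, among them Adgre1, Cd68, Mertk and C1qb (4.07 to 2.57, with the size uncertain for Adgre1, whose GCM values of 4.9 to 5.1 lay below the array medians), with sums between 2059 and 2720 in SS-TAMs, against 855 to 999 in GCMs. Cd68 staining was used to choose SS-TAMs, so Cd68 is no finding. The part of these cell types in the Cd28, Icos and Sh2d1a values was not tested.

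Among the GCM arrays the 9 genes did not vary as a block. Their mean deviation from the GCM mean was -0.08, 0.05 and 0.03 on the log2 scale on replicates 1, 2 and 3, beside -0.18, 0.04 and 0.14 for pan T cell markers, -0.22, 0.08 and 0.14 for dendritic cell markers and 0.73, -0.40 and -0.34 for B cell markers. Cd28 was lowest on replicate 1 and highest on replicate 2. Sh2d1a was also highest on replicate 2, Bcl6 on replicate 1 and Cd4, Icos and Lef1 on replicate 3, while Pdcd1, Il21 and Ctla4 were tied between replicates 2 and 3. All 11 B cell markers and 7 of 8 germinal center B cell markers were highest on replicate 1. These are descriptions over 3 arrays, with no test.

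**Figure D4:**
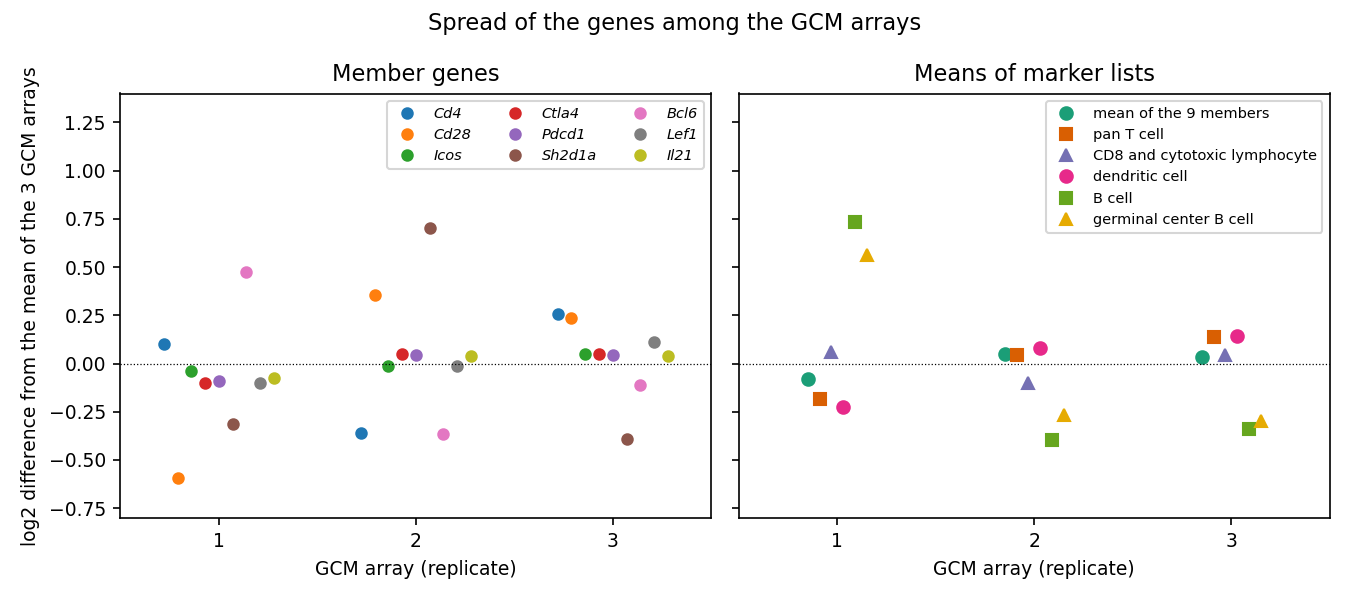
Log2 difference of each of the 3 GCM arrays from the GCM mean, for the 9 genes (left) and for the means of these genes and of 5 marker lists (right); points are offset sideways to separate them. B cell markers are at 0.73 on replicate 1, where the 9 genes average -0.08 and Bcl6 is the highest of them.

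The genes whose profile over the 6 arrays lay closest to Cd28 were Eef1b2, Churc1, Abracl, Cyld and Nsa2, by Euclidean distance of log2 values centred on each gene's mean (0.42 to 0.56). Cyld, a deubiquitinase gene, was at 24.3, 24.1 and 24.8 in SS-TAMs, against 77.2, 132.2 and 113.6 in GCMs. Eef1b2, a translation elongation factor gene, was at 106.5, 91.0 and 114.5 in SS-TAMs, against 314.3, 517.3 and 427.7 in GCMs. Their direction and array order follow from being chosen for likeness to Cd28 and are given as description. None of the 5 is in the lists used here.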

How the data were processed

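Captured macrophages, in 3 SS-TAM and 3 GCM samples, were profiled on Affymetrix mouse gene arrays after RNA amplification, 1 array per sample. Intensity values, deposited by the authors in linear units, had been summarized for 28944 probe sets. The submitters' processing notes name RMA and limma without a version. Log2 of these intensities was taken. Probe sets were named by the platform annotation, with 21698 matched to RefSeq by gene ID; 1621 that name several genes and 5534 that are unnamed here were left out. Where several probe sets named a gene (999 genes), that with the highest mean log2 intensity was kept.

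The linear model of limma 3.58.1 (lmFit, eBayes; R 4.3.3) was fitted to all 6 arrays without covariates, and two-sided p-values were adjusted by Benjamini and Hochberg's method across 19938 genes, with 0.05 as the limit for a call. Every log2 fold change is the SS-TAM mean minus the GCM mean, and means ± SD are of linear intensities. A run on simulated data with independent noise checked beforehand only that the fit recovers large changes, not its error rate on these arrays. With 3 arrays a group, exact permutation reaches no p below 0.1, and the number of arrays limits precision.

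The members and lists were chosen with earlier results of these data known. Named genes were all members, up to 4 called genes per list with the largest change (or the 2 brightest where none was called), and the 5 profiles closest to that of the called member with the highest GCM mean, Cd28; other list genes were named after their values were seen. Alternatives covered scaling, low values, probe set choice, variance model, array weights, a replicate block, call rules and each array left out.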

Additional observations from a re-analysis of the deposited data

How the results depend on the processing

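Of the 9 genes, 2 were lower in SS-TAMs and 0 higher, and the count of higher genes was 0 under every alternative run. The count of lower genes was 1 when a 2-fold difference was also required (Cd28), and 0 to 2 with each array left out in turn: Cd28 alone without GCM replicate 1, Sh2d1a alone without GCM replicate 2, and none without GCM replicate 3, where limma called 433 genes lower in all. Without SS-TAM replicate 3 the called genes were Cd28 and Lef1. With an unadjusted p under 0.05, Sh2d1a was called beside Cd28 and Icos, where 2080 of 19938 genes were called lower. With only genes of a mean intensity of at least 10 tested it was called beside them too, where 947 of 5366 genes were lower. Sh2d1a and Cd28 met that intensity limit through their GCM values.

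When arrays were scaled to core macrophage markers, the all-gene median log2 fold change was -1.70, which called 99.1% of genes lower and so counted all 9 genes. Relative to that median Cd28, Sh2d1a and Icos had -2.15, -1.11 and -0.86. Among the 9 genes, values that changed sign belonged to genes that were not called: Pdcd1 had -0.017 after median centring, -0.024 after quantile normalization and -1.69 relative to core markers, and Il21 had -0.030 and -1.70 after median centring and relative to core markers. Ly9, Cd84 and Il27, called higher, had -0.30, -0.84 and -1.46 relative to core markers, all above the all-gene median of -1.70 under that scaling. With log2 of intensity plus 10, Cd40lg, Runx3 and Grap2 were no longer called (adjusted p = 0.052, 0.052 and 0.082 from limma). Replicate numbers are shared between mice of different genotypes and pair nothing by design. Same-numbered arrays deviated together only weakly (r over genes of 0.09, 0.09 and 0.02, each the highest for its number). With a replicate block the count of lower members was 2, while limma called 708 genes lower and 611 higher in all. Low intensity limits Il21, Pdcd1, Ctla4 and the SS-TAM levels of Cd28 and Sh2d1a, where no detection call was used.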
